A study of Caenorhabditis elegans with 20 samples.

Results

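Lysozymes are enzymes that cut the peptidoglycan of bacterial cell walls. In Caenorhabditis elegans, an animal that lives on bacteria, they serve both to break open the food in the gut and to defend against microbes. The genome holds a pair of unrelated families, lys (similar to the lysozymes of amoebae) and ilys (the invertebrate type). Messenger RNA of 9 of these genes, lys-1, lys-2, lys-4, lys-5, lys-7, lys-8, ilys-2, ilys-3 and ilys-5, was followed across 20 libraries. They were found by gene symbol among 16 lys and ilys genes and 39341 genes in all, 6 of the 10 lys genes and 3 of the 6 ilys genes. The 9 genes were picked from the families with earlier results of these tables known. Which measured values led to each choice is not recorded, so every difference and adjusted p below describes these genes and is no independent support for their response. The other 7 family members are given as well.

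The libraries were made from whole animals at about the L4 stage, as 10 groups of 2 biological replicates over 2 experiments. Before either experiment, animals of every group were kept on soy peptone plates with 0.64 nM vitamin B12. All strains, wild type included, carried the reporter Pacdh-1::GFP with the unc-119(+) marker. In experiment 1, Δnhr-114 animals (allele gk849) and wild type were grown for 48 hours on soy peptone plates and E. coli OP50 with 25 mM methionine or without it. NHR-114 is a nuclear hormone receptor that takes part in controlling the Met/SAM cycle, which turns methionine over through S-adenosylmethionine. In experiment 2, metr-1(ww52);Δnhr-10 animals (alleles ww52 and tm4695), Δmetr-1 animals (allele ok521) and wild type received 20 nM vitamin B12 during the experiment and, for 48 hours, E. coli HT115 carrying an nhr-114 RNAi clone or the empty vector. METR-1 is methionine synthase, the enzyme of the cycle that needs vitamin B12. The metr-1(ww52);Δnhr-10 strain differs from wild type in both genes, and their parts cannot be told apart. The experiments differ in bacteria, plates and vitamin B12, so they were never compared with each other.

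Levels are in CPM, the reads assigned to a gene per 1000000 reads of the library, not scaled by gene length. The deepest library was 24482380 reads and the shallowest 1389117. A count of 0 allows up to 3 reads, or 0.123 to 2.16 CPM by library, for counting error only. The deletion was visible in experiment 1, where nhr-114 had 0.408 and 0.449 CPM in Δnhr-114 with methionine, 0.445 and 0.703 CPM in untreated Δnhr-114, 5.41 and 5.76 CPM in wild type with methionine and 29.0 and 36.6 CPM in untreated wild type. For the other mutated genes, metr-1 had 555 and 462 CPM in vector libraries of metr-1(ww52);Δnhr-10 and 372 and 468 CPM in those of Δmetr-1, against 59.8 and 69.4 CPM in those of wild type, and nhr-10 had 16.1 and 21.5 CPM against 41.8 and 24.9 CPM in wild type. Labelled RNAi, metr-1 had 130.0 and 116 CPM in that double mutant and 30.3 and 45.7 CPM in Δmetr-1 against 94.5 and 73.7 CPM in wild type, and nhr-10 had 22.2 and 25.9 CPM in the double mutant against 38.6 and 22.8 CPM. On vector both metr-1 mutants thus carried more metr-1 reads than wild type, and nhr-10 reads remained in its deletion strain. Reads come from 3′ ends, and whether they lie outside the mutated parts was not examined, so these levels do not check those labels. In experiment 2 nhr-114 was higher, not lower, than on vector in 3 libraries labelled RNAi. The level of nhr-114 was 391 and 3.60 CPM in the metr-1(ww52);Δnhr-10 strain labelled RNAi against 37.4 and 33.7 CPM on vector. It had 193 and 7.94 CPM in Δmetr-1 labelled RNAi against 29.4 and 46.3 CPM on vector, and 340.3 and 2.30 CPM in wild type labelled RNAi against 8.98 and 3.16 CPM on vector. Replicate 1 of each RNAi group was thus far above its vector libraries, and the RNAi groups are called the libraries labelled RNAi throughout. Where these nhr-114 reads came from was not examined, so their level does not show whether the RNAi worked there. Called differences that rest on them are also given without the 3 high libraries. A gene was called when limma gave an adjusted p under 0.01 with a fold over 1.5, and log2 differences are on log2(CPM + 1), with their standard error (SE).

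The 9 genes lie on chromosomes II, IV, V and X (WBcel235), all protein-coding. On chromosome IV, lys-4 (11621429 to 11623174), lys-5 (11624252 to 11625582) and lys-6 (11626910 to 11627947) follow one another on the minus strand with gaps of 1077 and 1327 bases. Also on chromosome IV, ilys-3 (2464456 to 2465443), ilys-2 (2467678 to 2468879) and ilys-1 (2470414 to 2471449) lie on the plus strand, 2234 and 1534 bases apart. On chromosome V, lys-1 (10277904 to 10279056), lys-2 (10280307 to 10281474) and lys-3 (10282100 to 10283544) form another group with gaps of 1250 and 625 bases. The remaining members stand alone, lys-7 on V (3481432 to 3482600), lys-8 on II (5586178 to 5587651) and ilys-5 on X (6533490 to 6536840). Neighbouring copies can be similar in sequence, so reads of lys-4, lys-5 and lys-6, of lys-1, lys-2 and lys-3, or of the ilys-3 group may have been split between them by the counting and their values are uncertain to that extent.

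Levels of the members fell into 3 ranges. The intestinal lysozyme gene lys-1 spanned 1097 to 1614 CPM (median 1422) in experiment 1 and 688 to 1886 CPM (median 1366) in experiment 2. Next came ilys-5, at 138 to 1167 CPM (median 883) and 94.2 to 1418 CPM (median 866), and lys-2, at 387 to 1321 CPM (median 654) and 234.8 to 1157 CPM (median 710.2). By median these 3 genes were the most abundant members. Levels of ilys-5 nonetheless fell to 138 CPM in experiment 1 and 94.2 CPM in experiment 2. The ranges of lys-2 and ilys-5 overlap in both experiments. Intermediate levels were found for lys-8, at 201 to 485 CPM (median 390.1) and 144 to 556 CPM (median 292), and for lys-7, at 147 to 392 CPM (median 238) and 58.8 to 791 CPM (median 256). By contrast, lys-4 ran over a wide span, 5.86 to 453 CPM (median 77.8) in experiment 1 and 7.77 to 667 CPM (median 45.8) in experiment 2. The low members were lys-5 (0.311 to 16.5 CPM (median 1.04) in experiment 2), ilys-2 (0.156 to 10.6 CPM (median 1.15)) and ilys-3 (0 to 12 CPM (median 1.42)). All 9 passed the filter of 5 CPM in at least 2 libraries in experiment 2, and 7 in experiment 1, where ilys-2 and ilys-3 were not tested. In experiment 1 lys-5 passed through untreated wild type alone, and in experiment 2 lys-5, ilys-2 and ilys-3 passed through the mutants, so their passing is tied to where they were high.

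The gene lys-4 had the widest range of the members. In experiment 1, it had 57.8 and 97.8 CPM in Δnhr-114 with methionine and 12.8 and 5.86 CPM in untreated Δnhr-114. Wild type had 32.6 and 114.5 CPM with methionine and 297 and 453 CPM untreated. Untreated wild type was above every other library, untreated Δnhr-114 below every other, and the methionine groups of both strains overlapped in between. Methionine therefore went with less lys-4 in wild type and with more in Δnhr-114. On the mean, untreated Δnhr-114 had 9.33 ± 4.92 CPM and untreated wild type 375 ± 110.0 CPM (SD, n = 2 each), a 40.2-fold gap. The log2 difference was -5.24 ± 0.66 (SE) with an adjusted p of 0.0973, which missed the threshold. For methionine against untreated, it was 2.97 ± 0.66 (adjusted p = 0.598) in Δnhr-114 and -2.56 ± 0.66 (adjusted p = 1) in wild type, neither past the threshold. The difference between these effects, tested as an interaction, was 5.53 ± 0.93 (adjusted p = 0.529).

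The neighbour lys-5 followed the same order at far lower levels. It had 0.992 and 1.27 CPM in Δnhr-114 with methionine, 0 reads in both untreated Δnhr-114 libraries, 0.666 and 2.16 CPM in wild type with methionine and 8.54 and 8.78 CPM in untreated wild type. The wild type values with methionine were 8 and 3 reads. The latter is the floor of the shallowest library (1389117 reads). Against the floor of 3 reads in each library (0.251 CPM on average), untreated Δnhr-114 was at least 34.5-fold lower than untreated wild type (8.66 CPM), by a bound that covers counting error only. The fitted log2 difference, -3.27 ± 0.58 with an adjusted p of 0.18, missed the threshold and depends on the added 1 CPM. The third gene of the row, lys-6, which is not among the 9, had 1.69 and 2.00 CPM in Δnhr-114 with methionine, 0.534 and 0.312 CPM in untreated Δnhr-114, 2.66 and 5.04 CPM in wild type with methionine and 17.6 and 12.2 CPM in untreated wild type. In all 3 genes both untreated wild type libraries were the highest and both untreated Δnhr-114 libraries the lowest.

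**Figure D1:**
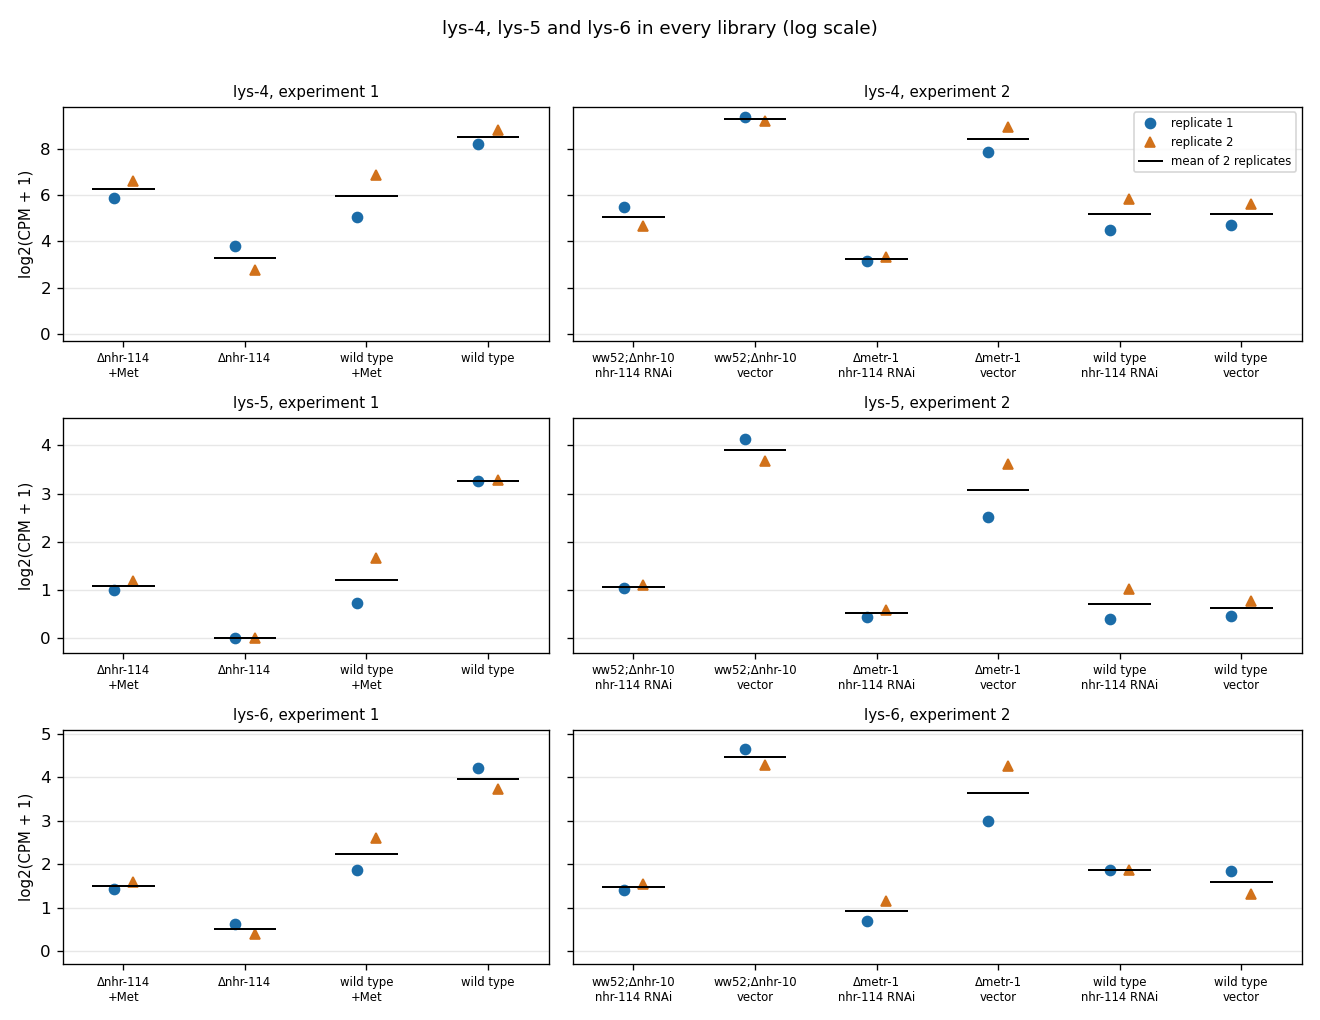
Level of lys-4, lys-5 and lys-6 in every library as log2(CPM + 1), with experiment 1 at left and experiment 2 at right (circles replicate 1, triangles replicate 2, bars the mean of 2; +Met is 25 mM methionine, ww52;Δnhr-10 is metr-1(ww52);Δnhr-10). Untreated wild type in experiment 1 and both metr-1 mutants on vector in experiment 2 stand above the other groups, with lys-4 at 297 and 453 CPM in untreated wild type.

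In experiment 2, lys-4 was high in the metr-1 mutants on vector. It had 43.1 and 24.1 CPM in the metr-1(ww52);Δnhr-10 strain labelled RNAi and 667 and 587 CPM on vector. In Δmetr-1 it had 7.77 and 9.02 CPM in the libraries labelled RNAi and 233 and 492 CPM on vector. Wild type had 21.6 and 56.3 CPM labelled RNAi and 24.7 and 48.5 CPM on vector. All 4 mutant vector libraries exceeded all others, both Δmetr-1 libraries labelled RNAi were the lowest, and the wild type pairs overlapped.

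On vector, lys-4 rose in the metr-1(ww52);Δnhr-10 strain, with a mean of 627 ± 56.1 CPM against 36.6 ± 16.8 CPM in wild type (SD, n = 2 each), a 17.1-fold ratio and a log2 difference of 4.13 ± 0.52 (SE; limma adjusted p = 0.00785). Its call was lost without either wild type vector library, either metr-1(ww52);Δnhr-10 library of vector or RNAi, or either Δmetr-1 library labelled RNAi (adjusted p 0.0137 to 0.119), with edgeR (0.0467), with median-of-ratios scaling (0.0178) and without the 3 libraries of high nhr-114 (0.0304), which are not in the comparison but enter the pooled spread. In Δmetr-1 on vector, lys-4 averaged 362 ± 183 CPM and the log2 difference from wild type was 3.25 ± 0.52 (adjusted p = 0.0267), short of the threshold, although both libraries were above both of wild type.

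Relative to vector, lys-4 fell in the libraries labelled RNAi of both mutants. In Δmetr-1 the mean was 8.39 ± 0.886 CPM labelled RNAi against 362 ± 183 CPM on vector, 43.2-fold lower (log2 -5.18 ± 0.52 SE; adjusted p = 0.000631), and the call held with any 1 library of the experiment left out but was lost with the 4 compared libraries alone (0.0533). In metr-1(ww52);Δnhr-10 it was 33.6 ± 13.4 CPM against 627 ± 56.1 CPM, 18.7-fold lower (log2 -4.24 ± 0.52 SE; adjusted p = 0.00227), a call lost without any 1 of its 4 libraries (0.0146 to 0.0241). Without the 3 RNAi libraries that had high nhr-114, the log2 differences were -5.08 in Δmetr-1 and -4.64 in the metr-1(ww52);Δnhr-10 strain, with adjusted p 0.0329 and 0.038, so the sizes were alike and the calls were lost. In wild type the difference was 0.01 ± 0.52 (SE; adjusted p = 0.998). The interaction of the RNAi label with strain was -5.19 ± 0.74 for Δmetr-1 (adjusted p = 0.0181) and -4.25 ± 0.74 for metr-1(ww52);Δnhr-10 (adjusted p = 0.0389), neither past 0.01. Between strains labelled RNAi, Δmetr-1 differed from wild type by -1.94 ± 0.52 (adjusted p = 0.0192), with no overlap, and metr-1(ww52);Δnhr-10, which overlapped wild type, by -0.12 ± 0.52 (adjusted p = 0.895).

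In experiment 2, lys-5 had 1.05 and 1.16 CPM in the metr-1(ww52);Δnhr-10 strain labelled RNAi and 16.5 and 11.7 CPM on vector. It had 0.361 and 0.505 CPM in Δmetr-1 labelled RNAi and 4.74 and 11.2 CPM on vector. In wild type it had 0.311 and 1.04 CPM labelled RNAi and 0.382 and 0.718 CPM on vector, that is, at most 14 reads in a library. The mutant vector libraries were again above all others. On vector, lys-5 rose in the metr-1(ww52);Δnhr-10 strain by 3.28 ± 0.43 on the log2 scale (SE; adjusted p = 0.00785), a call lost without any 1 library other than the vector libraries of Δmetr-1 (0.0151 to 0.124), and with a pseudocount of 0.5 (0.0101), edgeR (0.0274) or median-of-ratios scaling (0.0128), or without the 3 libraries of high nhr-114 (0.1). The difference of Δmetr-1 was 2.44 ± 0.43 (adjusted p = 0.0461). In the libraries labelled RNAi lys-5 fell, with a log2 difference of -2.55 ± 0.43 in Δmetr-1 (adjusted p = 0.00252; 0.0231 and 0.0181 without either RNAi library of that strain, and 0.0609 with the 4 compared libraries alone). The value was -2.83 ± 0.43 in the metr-1(ww52);Δnhr-10 strain (adjusted p = 0.0038; 0.0255 to 0.0372 without any 1 of its libraries, 0.0108 with edgeR and 0.0122 with the 4 compared libraries alone). Without the 3 libraries of high nhr-114 these were -2.48 (adjusted p = 0.0611) and -2.79 (adjusted p = 0.0818).

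The third gene of the row, lys-6, moved alongside. It had 1.67 and 1.93 CPM in the metr-1(ww52);Δnhr-10 strain labelled RNAi and 24.0 and 18.4 CPM on vector, 0.632 and 1.23 CPM in Δmetr-1 labelled RNAi and 6.93 and 18.1 CPM on vector, and 2.65 and 2.67 CPM in wild type labelled RNAi and 2.58 and 1.51 CPM on vector. It was called lower in the libraries labelled RNAi of both mutants, at -2.69 ± 0.43 in Δmetr-1 (adjusted p = 0.00186) and -2.98 ± 0.43 in the metr-1(ww52);Δnhr-10 strain (adjusted p = 0.0031). Like lys-5, lys-6 passed the filter in experiment 2 only through the metr-1 mutants on vector. These calls are therefore tied to where it was high. With the 3 libraries of high nhr-114 left out, the values for lys-6 were -2.47 (adjusted p = 0.0612) and -2.91 (adjusted p = 0.0735), not called. Over the 16 libraries with more than 3 reads of each of the 3 genes, lys-5 reads were 1.29 to 5.60% of lys-4 reads (median 2.04%) and lys-6 reads 2.05 to 13.6% (median 3.79%). These shares varied several-fold between libraries, and whether some lys-5 or lys-6 reads came from lys-4 transcripts was not tested. Of 13 protein-coding genes within 20000 bases of the row, those called in any comparison were Y24F12A.1 and ZK809.1, both lower in comparisons that use the libraries labelled RNAi. Where mutants labelled RNAi were compared with vector or with wild type, 3.38 to 11% of all genes were called lower. The neighbour dsl-5 averaged at most 0.487 CPM in any group, too low to be tested.

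The gene ilys-5, on the X chromosome, was abundant save in animals that lacked nhr-114 without methionine and in metr-1 mutants labelled RNAi. In experiment 1, it had 579 and 889 CPM in Δnhr-114 with methionine, 138 and 209 CPM in untreated Δnhr-114, 882 and 891 CPM in wild type with methionine and 1167 and 884 CPM in untreated wild type. Both untreated Δnhr-114 libraries were below all 6 others. Their mean was 174 ± 49.9 CPM against 1026 ± 200.4 CPM in untreated wild type (SD, n = 2 each), a 5.91-fold gap, with a log2 difference of -2.57 ± 0.30 (SE; adjusted p = 0.0738). With methionine against untreated Δnhr-114, the difference was 2.07 ± 0.30 (adjusted p = 0.198), and in wild type -0.20 ± 0.30 (adjusted p = 1). None passed the threshold.

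In experiment 2, ilys-5 had 115 and 94.2 CPM in the metr-1(ww52);Δnhr-10 strain labelled RNAi and 1418 and 1359 CPM on vector. It had 174 and 130.0 CPM in Δmetr-1 labelled RNAi and 595 and 1012 CPM on vector, and 885 and 1049 CPM in wild type labelled RNAi and 847 and 1004 CPM on vector. The 4 mutant libraries labelled RNAi were below the other 8, including replicate 1 of each strain. Relative to vector, ilys-5 fell 13.2-fold in the metr-1(ww52);Δnhr-10 strain labelled RNAi (log2 -3.72 ± 0.27 SE; adjusted p = 0.000396) and 5.29-fold in Δmetr-1 labelled RNAi (-2.36 ± 0.27; adjusted p = 0.000743). The Δmetr-1 call held with any 1 library left out but was lost with the 4 compared libraries alone (0.0533). The other was lost without replicate 1 on vector (0.0116) or replicate 2 labelled RNAi (0.0105) of metr-1(ww52);Δnhr-10. Without the 3 libraries of high nhr-114, the differences were -3.87 in the metr-1(ww52);Δnhr-10 strain (adjusted p = 0.0168) and -2.57 in Δmetr-1 (adjusted p = 0.0369), and both calls were lost. In wild type the difference was 0.06 ± 0.27 (adjusted p = 0.998).

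Among the libraries labelled RNAi, ilys-5 was lower than in wild type by -3.20 ± 0.27 on the log2 scale in the metr-1(ww52);Δnhr-10 strain (SE; adjusted p = 0.000382) and by -2.67 ± 0.27 in Δmetr-1 (adjusted p = 0.000218), and both calls held with any 1 library left out. Without the 3 libraries of high nhr-114, the differences were -3.46 (adjusted p = 0.0306) and -3.0 (adjusted p = 0.0272), no smaller but no longer called. The interaction of the RNAi label with metr-1(ww52);Δnhr-10 was -3.79 ± 0.38 (adjusted p = 0.00912), the sole interaction called for a member, and it was lost without any 1 library other than the vector libraries of Δmetr-1 (0.0168 to 0.0851), with edgeR (0.0257), with median-of-ratios scaling (0.0116) and without the 3 libraries (0.126). With Δmetr-1 it was -2.42 ± 0.38 (adjusted p = 0.0199).

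The gene lys-8, known in worms as a target of the DBL-1 growth factor pathway, moved in a narrower range. In experiment 1, it had 371 and 485 CPM in Δnhr-114 with methionine, 276 and 201 CPM in untreated Δnhr-114, 437 and 409.6 CPM in wild type with methionine and 433 and 353 CPM in untreated wild type. Untreated Δnhr-114 was the lowest pair, with a log2 difference of -0.73 ± 0.24 from untreated wild type (adjusted p = 0.89). In experiment 2, lys-8 had 144 and 151 CPM in the metr-1(ww52);Δnhr-10 strain labelled RNAi, 201 and 326 CPM on vector, 238 and 259 CPM in Δmetr-1 labelled RNAi, 211 and 342 CPM on vector, 436 and 502 CPM in wild type labelled RNAi and 437 and 556 CPM on vector. All 4 wild type libraries exceeded all 8 mutant libraries. The difference was called once: labelled RNAi, metr-1(ww52);Δnhr-10 averaged 148 ± 4.64 CPM against 469 ± 46.3 CPM in wild type, 3.18-fold lower (log2 -1.66 ± 0.29 SE; adjusted p = 0.00298; 0.0154 to 0.0269 without any 1 of the 4 libraries compared). Without the 3 libraries of high nhr-114 it was -1.73 (adjusted p = 0.0931).

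**Figure D2:**
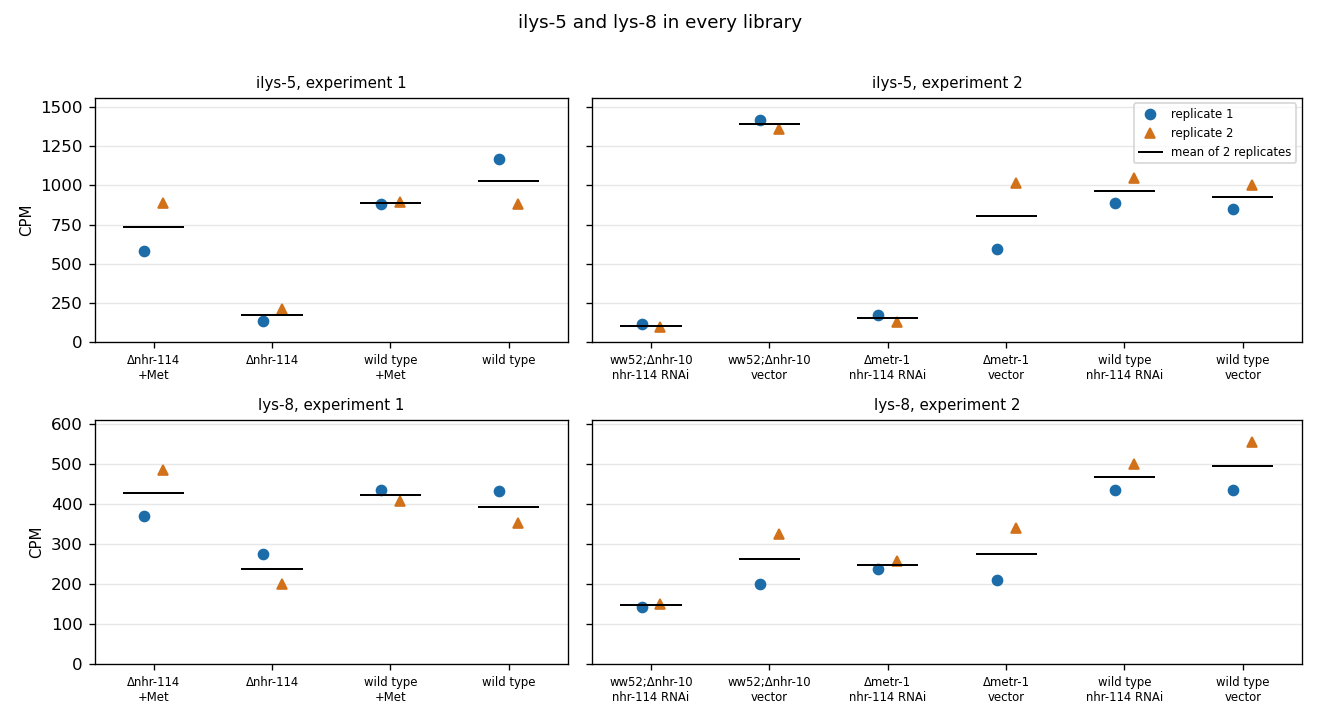
CPM of ilys-5 and lys-8 in every library on a linear axis, with experiment 1 at left and experiment 2 at right (circles replicate 1, triangles replicate 2, bars the mean of 2; +Met is 25 mM methionine, ww52;Δnhr-10 is metr-1(ww52);Δnhr-10). The level of ilys-5 is lowest in untreated Δnhr-114 (138 and 209 CPM) and in both metr-1 mutants labelled RNAi, and lys-8 is higher in wild type than in either metr-1 mutant.

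The most abundant member, lys-1, showed no called difference. In experiment 1, it had 1614 and 1401 CPM in Δnhr-114 with methionine, 1297 and 1338 CPM in untreated Δnhr-114, 1462 and 1516 CPM in wild type with methionine and 1097 and 1442 CPM in untreated wild type, and its log2 differences were 0.01 to 0.24 in size. In experiment 2, it had 688 and 1502 CPM in the metr-1(ww52);Δnhr-10 strain labelled RNAi, 1198 and 1282 CPM on vector, 1627 and 1886 CPM in Δmetr-1 labelled RNAi, 1025 and 1186 CPM on vector, 1239 and 1502 CPM in wild type labelled RNAi and 1451 and 1583 CPM on vector. Replicate 1 of metr-1(ww52);Δnhr-10 labelled RNAi was the lowest, less than any other library of the experiment.

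Next to it on chromosome V, lys-2 varied more. In experiment 1, it had 687 and 643 CPM in Δnhr-114 with methionine, 596 and 387 CPM in untreated Δnhr-114, 1321 and 518 CPM in wild type with methionine and 1006 and 665 CPM in untreated wild type. The spread between the wild type replicates was about as wide as the gap between strains. In experiment 2, lys-2 had 234.8 and 619.6 CPM in the metr-1(ww52);Δnhr-10 strain labelled RNAi, 637 and 454 CPM on vector, 764 and 963 CPM in Δmetr-1 labelled RNAi, 345 and 656 CPM on vector, 1092 and 1136 CPM in wild type labelled RNAi and 1157 and 1065 CPM on vector. All 4 wild type libraries exceeded all 8 mutant libraries here as well. The log2 differences from wild type were -1.05 ± 0.43 on vector (adjusted p = 0.349) and -1.54 ± 0.43 labelled RNAi (adjusted p = 0.0289) in the metr-1(ww52);Δnhr-10 strain, and -1.22 ± 0.43 on vector in Δmetr-1 (adjusted p = 0.485). None passed the threshold. The labelled RNAi difference of metr-1(ww52);Δnhr-10 reached an adjusted p of 0.00762 without replicate 2 of that group.

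The gene lys-7, needed for full resistance to several bacterial pathogens, differed widely between replicates in experiment 2. In experiment 1, it had 226 and 317 CPM in Δnhr-114 with methionine, 308 and 392 CPM in untreated Δnhr-114, 147 and 249 CPM in wild type with methionine and 166 and 217 CPM in untreated wild type. Untreated Δnhr-114 was above untreated wild type in both replicates, with a log2 difference of 0.87 ± 0.33 (adjusted p = 0.991). In experiment 2, lys-7 had 158 and 604 CPM in the metr-1(ww52);Δnhr-10 strain labelled RNAi, 275 and 791 CPM on vector, 261 and 633 CPM in Δmetr-1 labelled RNAi, 193 and 256 CPM on vector, 58.8 and 255 CPM in wild type labelled RNAi and 73.7 and 253 CPM on vector. The level was higher in replicate 2 than in replicate 1 of all 10 groups, by 1.27 to 4.34 times. The log2 difference from wild type was 1.76 ± 0.98 on vector (adjusted p = 0.484) and 1.32 ± 0.98 labelled RNAi (adjusted p = 0.361) in the metr-1(ww52);Δnhr-10 strain. It was 1.72 ± 0.98 in Δmetr-1 labelled RNAi (adjusted p = 0.215), with a standard error that exceeded that of the other tested members.

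**Figure D3:**
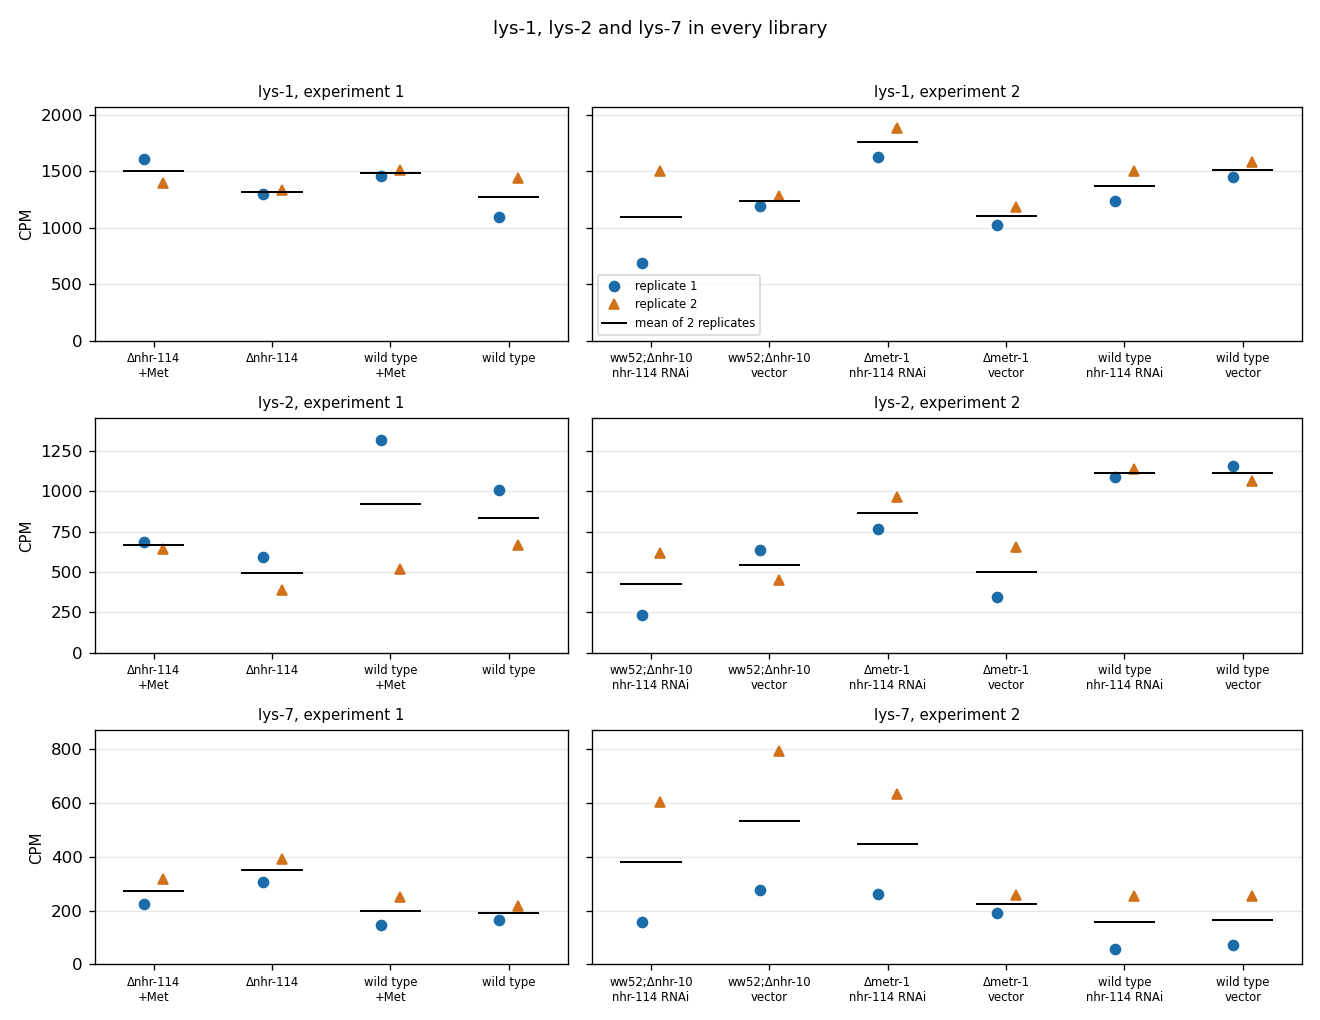
CPM of lys-1, lys-2 and lys-7 in every library on a linear axis, with experiment 1 at left and experiment 2 at right (circles replicate 1, triangles replicate 2, bars the mean of 2; +Met is 25 mM methionine, ww52;Δnhr-10 is metr-1(ww52);Δnhr-10). In each group replicate 2 of lys-7 stands above replicate 1, and lys-2 is higher in the 4 wild type libraries of experiment 2 than in the 8 mutant libraries.

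The neighbours ilys-2 and ilys-3 were near the limit of detection except in the metr-1(ww52);Δnhr-10 strain and some libraries labelled RNAi. In worms ilys-3 is active in the pharynx and gut, where it breaks down bacteria. In experiment 1, ilys-2 stayed at or below 1.77 CPM and ilys-3 at or below 2.88 CPM, and neither was tested. In experiment 2, ilys-2 had 1.67 and 1.93 CPM in the metr-1(ww52);Δnhr-10 strain labelled RNAi and 5.90 and 10.6 CPM on vector (15 and 170 reads). It had 0.722 and 1.59 CPM in Δmetr-1 labelled RNAi, 1.34 and 0.416 CPM on vector, 0.156 and 0.964 CPM in wild type labelled RNAi and 0.286 and 0.574 CPM on vector. The metr-1(ww52);Δnhr-10 vector libraries were above the other 10. The log2 difference from wild type was 2.65 ± 0.46 on vector (adjusted p = 0.0327), not called, and called by DESeq2 (adjusted p = 0.000795) and with the 4 compared libraries alone (0.00822). The gene passed the filter through the metr-1(ww52);Δnhr-10 vector libraries alone, so those calls are tied to where it was high.

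In experiment 2, ilys-3 had 0.209 and 11.3 CPM in the metr-1(ww52);Δnhr-10 strain labelled RNAi and 9.44 and 12 CPM on vector (24 and 193 reads). It had 1.08 and 8.01 CPM in Δmetr-1 labelled RNAi, 2.19 and 1.75 CPM on vector, 0 and 0.222 CPM in wild type labelled RNAi and 0.286 and 0.215 CPM on vector. Wild type libraries held at most 3 reads, whereas both metr-1(ww52);Δnhr-10 vector libraries and replicate 2 of each mutant labelled RNAi were high. The log2 difference from wild type on vector was 3.22 ± 0.98 in the metr-1(ww52);Δnhr-10 strain (adjusted p = 0.241). In metr-1(ww52);Δnhr-10 labelled RNAi against vector it was -1.60 ± 0.98 (adjusted p = 0.3), and 0.07 without replicate 1 labelled RNAi, so that 1 library set its direction.

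**Figure D4:**
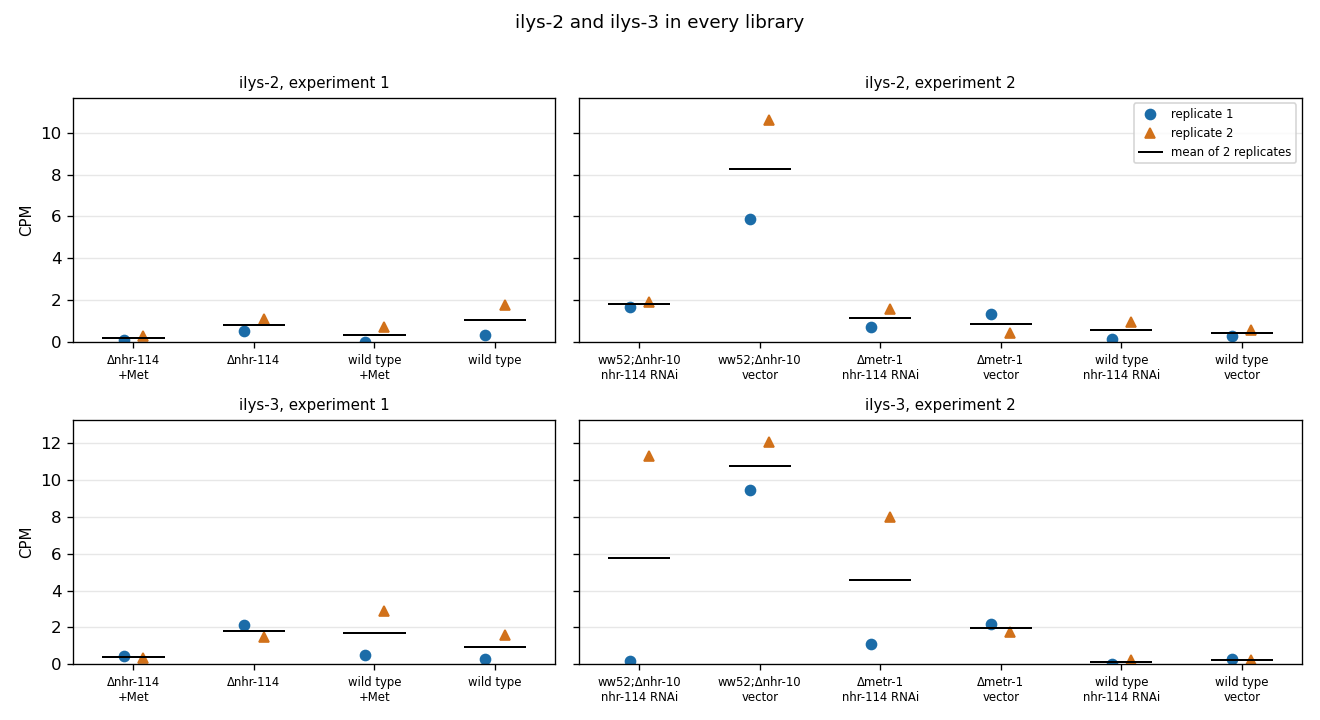
CPM of ilys-2 and ilys-3 in every library on a linear axis, with experiment 1 at left and experiment 2 at right (circles replicate 1, triangles replicate 2, bars the mean of 2; +Met is 25 mM methionine, ww52;Δnhr-10 is metr-1(ww52);Δnhr-10). Both genes peak in the metr-1(ww52);Δnhr-10 strain on vector, ilys-2 at 5.90 and 10.6 CPM, and ilys-3 is also high in replicate 2 of both metr-1 mutants labelled RNAi.

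Counted over the 9 genes, experiment 1 gave no call by limma or edgeR in any of its 5 comparisons, where both called 0% of 10948 genes. With methionine against untreated wild type, DESeq2 on the recovered reads called 0.155% of all genes and 0 members. In the other comparisons it called 2 members higher in Δnhr-114 with methionine against untreated (ilys-5 and lys-4; 0.0913% of genes were called higher), and 3 lower in untreated Δnhr-114 against wild type (ilys-5, lys-4 and lys-5; 0.301% called lower). It called 0 members between the strains on methionine (0.0274% of genes) and lys-4 and lys-5 higher in the interaction (0.1% called higher). Because lys-5 passed the filter through untreated wild type alone, its calls here are tied to where it was high. At an unadjusted p under 0.05, limma had 126 of 10948 genes for methionine in wild type, 477 for methionine in Δnhr-114, 496 between the untreated strains, 94 between the strains on methionine and 234 for the interaction.

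In experiment 2, of 11543 genes tested, 2 members were called higher in the metr-1(ww52);Δnhr-10 strain on vector (lys-4 and lys-5) against 0.243% of genes called higher. Here lys-5 passed the filter only through the metr-1 mutants on vector, so each count below or above that includes it is tied to where it was high. In Δmetr-1 on vector, 0 members were called by limma (0.113% of genes; 972 genes had an unadjusted p under 0.05) or edgeR (0.0953%), and DESeq2 called lys-4 and lys-5 higher (0.459% called higher). In wild type labelled RNAi against vector, 0 members and 0% of genes were called by limma, edgeR or DESeq2, with 141 genes at an unadjusted p under 0.05. Labelled RNAi against vector, ilys-5, lys-4 and lys-5 were called lower in Δmetr-1, where 11% of all genes were called lower, and the same 3 in the metr-1(ww52);Δnhr-10 strain, with 3.38% called lower. These comparisons share no library, but limma pooled the spread over the whole experiment, so they are not fully independent. Labelled RNAi against wild type, ilys-5 was called lower in Δmetr-1 (10% of genes called lower), and ilys-5 and lys-8 in the metr-1(ww52);Δnhr-10 strain (7.1% called lower), comparisons that share the wild type libraries. One member in Δmetr-1 is thus about the share of all genes. For the interaction with Δmetr-1, limma called 0 members (0.0347% of genes; 3120 at an unadjusted p under 0.05), edgeR 0 (0%), and DESeq2 called ilys-5, lys-4 and lys-5 lower (5.67% called lower). For that with metr-1(ww52);Δnhr-10, limma called ilys-5 lower (0.0173% called lower).

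**Figure D5:**
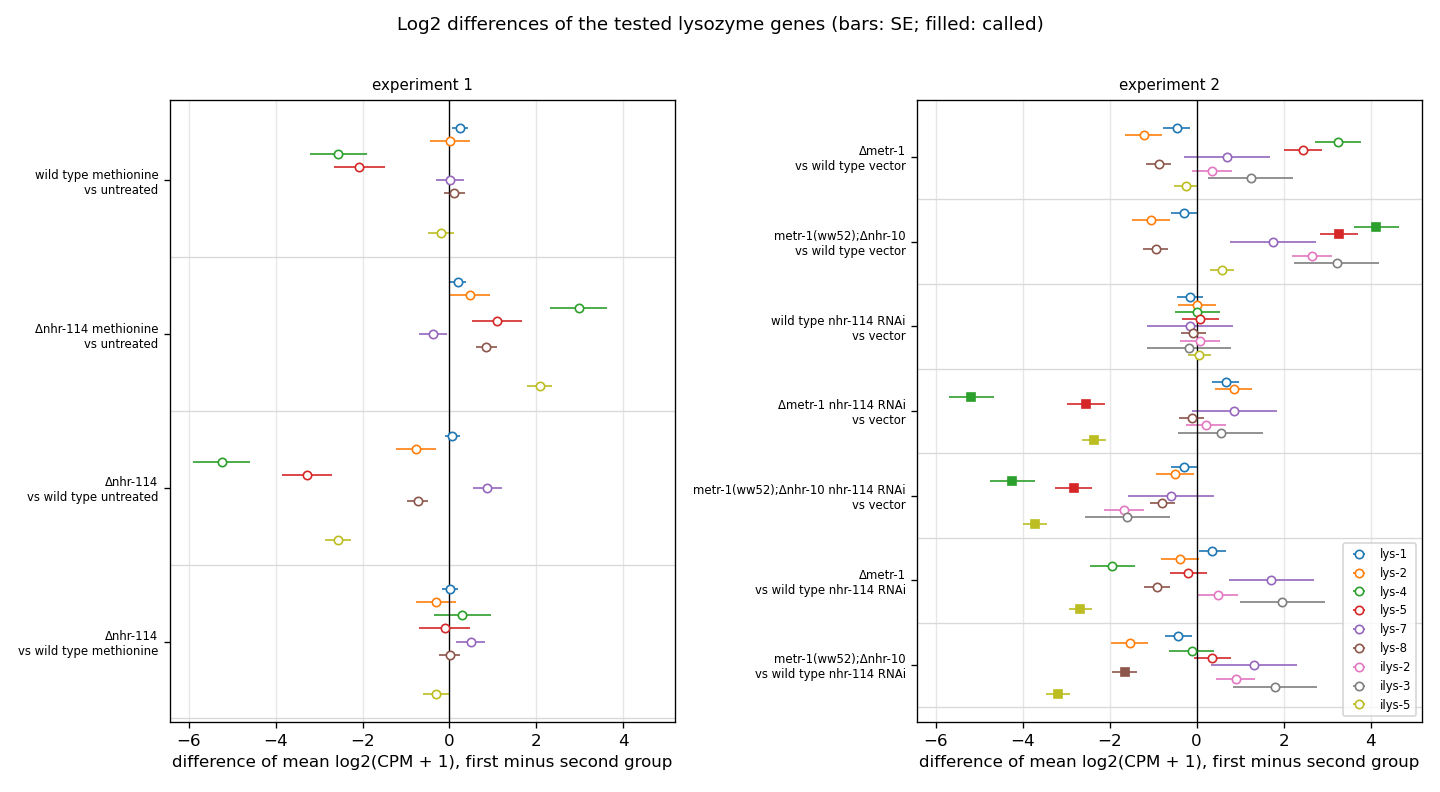
Difference of mean log2(CPM + 1) for each tested member in the 4 comparisons of groups of experiment 1 (left) and the 7 of experiment 2 (right), the group named first minus the group named second (bars are the SE, filled squares are called at an adjusted p under 0.01, and RNAi stands for libraries labelled nhr-114 RNAi). The filled squares lie at lys-4 and lys-5 for metr-1(ww52);Δnhr-10 on vector, at lys-4, lys-5 and ilys-5 for both mutants labelled RNAi against vector, and at ilys-5 and lys-8 against wild type labelled RNAi.

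Among the 7 other family members, lys-6 is given above. The gene ilys-4 had 38.5 and 22.7 CPM in the metr-1(ww52);Δnhr-10 strain labelled RNAi against 9.05 and 7.36 CPM on vector and was called higher there (log2 1.74 ± 0.32 SE; adjusted p = 0.00741), opposite to lys-4 and ilys-5, where 1.39% of all genes were called higher. It was also called higher there than in wild type labelled RNAi (10.1 and 8.52 CPM), by 1.57 ± 0.32 (adjusted p = 0.00604). These ilys-4 differences were 1.37 (adjusted p = 0.132) and 1.32 (adjusted p = 0.159) without the 3 libraries of high nhr-114. In Δmetr-1 it had 25.4 and 18.0 CPM labelled RNAi against 9.0 and 8.91 CPM on vector (adjusted p = 0.0227). The gene lys-3 stayed at or below 9.16 CPM with no call. At most 0.338 CPM of lys-10 was found in experiment 1, and in experiment 2 it reached 2.75 and 8.49 CPM in the metr-1(ww52);Δnhr-10 strain on vector against 0 and 0.287 CPM in wild type. The other 3, lys-9, ilys-1 and ilys-6, held at most 4 reads in any library. The 9 members together summed to 1386 and 3009 CPM in the metr-1(ww52);Δnhr-10 strain labelled RNAi, against 4427 and 4834 CPM on vector, with no overlap. In Δmetr-1 the sums were 3073 and 3889 CPM labelled RNAi against 2609 and 3958 CPM on vector, and in wild type 3733 and 4504 CPM against 3991 and 4512 CPM, and both pairs overlapped.

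Other antimicrobial and immune genes were counted from lists taken by family name or role. Of 22 immune regulators, all tested, 0 were called in 12 of the 14 comparisons, and 3 were called higher in each mutant against wild type labelled RNAi (nhr-49, sma-4 and sma-9 in Δmetr-1; nhr-49, sma-3 and sma-4 in the metr-1(ww52);Δnhr-10 strain). Of all genes, 5.87% were called higher in the Δmetr-1 comparison and 5.17% in that of metr-1(ww52);Δnhr-10. Their median log2 difference was 0.71 in the metr-1(ww52);Δnhr-10 strain, beside -0.02 over all genes, and 0.59 in Δmetr-1, beside -0.12. Of the 21 saposin-like spp genes tested there, 1 was called higher and 2 lower in the metr-1(ww52);Δnhr-10 strain, and 4 higher and 1 lower in Δmetr-1. The antibacterial factor genes abf-5 and abf-6, of 3 tested, were called higher in both. Among 6 tested caenacin genes, cnc-7 was called higher in both mutants against wild type labelled RNAi and in Δmetr-1 labelled RNAi against vector (1.52% of genes called higher). Without the 3 libraries of high nhr-114, 0 genes of these 4 lists were called in any of these comparisons. In that fit 0 of 10 tested sperm genes were called as well, so the loss was not particular to these lists.

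In whole animals, fewer cells of a type and less RNA per cell cannot be told apart. The 9 intestinal markers found in the tables (elt-2, ges-1 and others) had 0 calls in all 14 comparisons and none was at 0. Their summed level was 3914 and 4187 CPM in untreated Δnhr-114 against 4689.9 and 7351 CPM in untreated wild type, so untreated Δnhr-114 was lower on this sum. With methionine the sum was 6579 and 7082 CPM in Δnhr-114, above its untreated libraries, and 6198 and 5626 CPM in wild type. It was 4660.5 and 4966 CPM in the metr-1(ww52);Δnhr-10 strain labelled RNAi against 5672 and 6026 CPM on vector, and 5262 and 5307 CPM in Δmetr-1 labelled RNAi against 4908 and 6074 CPM on vector. Markers of other cells and of stage moved with the fall of lys-4, lys-5 and ilys-5 in the libraries labelled RNAi. The summed level of 11 sperm genes was 48.3 and 81.1 CPM in the metr-1(ww52);Δnhr-10 strain labelled RNAi against 339 and 471 CPM on vector, and 41.2 and 62.5 CPM in Δmetr-1 labelled RNAi against 351 and 705 CPM on vector. Neither pair overlapped. In wild type it was 666 and 727 CPM labelled RNAi and 898 and 962 CPM on vector. Yolk protein genes summed to 345 and 3423 CPM in the metr-1(ww52);Δnhr-10 strain labelled RNAi against 122 and 159 CPM on vector, to 3245 and 5518 CPM in Δmetr-1 labelled RNAi against 3264 and 64.0 CPM on vector, which overlap, and to 68.0 and 3278 CPM in untreated Δnhr-114 against 26.3 and 52.8 CPM in untreated wild type. The myosin gene unc-54, the most abundant of 6 body wall muscle markers, had 4091 and 6905 CPM in untreated Δnhr-114, 4264 and 5061 CPM in wild type with methionine and 13313 and 17021 CPM in untreated wild type. On vector, unc-54 had 9059 and 3417 CPM in the metr-1(ww52);Δnhr-10 strain and 10985 and 8690 CPM in Δmetr-1 against 842 and 1002 CPM in wild type, so it was high in the same groups as lys-4. The other 5 muscle markers did not share this: their summed level was 1762 and 2373 CPM in untreated Δnhr-114, 2976 and 3065 CPM in wild type with methionine and 2340 and 3232 CPM in untreated wild type, and on vector 2450 and 3151 CPM in the metr-1(ww52);Δnhr-10 strain and 2946 and 3053 CPM in Δmetr-1 against 2596 and 3082 CPM in wild type. Pharynx markers summed to 284 to 758 CPM over all libraries. In the metr-1(ww52);Δnhr-10 strain they had 596 and 730 CPM labelled RNAi against 307 and 495 CPM on vector. In Δmetr-1 they had 646 and 758 CPM against 347 and 366 CPM, and in wild type 339 and 385 CPM against 327 and 315 CPM. The mutant libraries labelled RNAi were thus above all others of experiment 2. Cuticle and molting genes summed to 176 to 2088 CPM and oocyte genes to 257 to 3917 CPM, with wide gaps between replicates of some groups. In replicates 1 and 2 of Δmetr-1 on vector, cuticle and molting genes had 203 and 1990 CPM and oocyte genes 3917 and 492 CPM. In untreated Δnhr-114 these were 1872 and 176 CPM and 289 and 3792 CPM. Cuticle and molting genes had 1139 and 318 CPM in the metr-1(ww52);Δnhr-10 strain labelled RNAi against 2033 and 1475 CPM on vector. In Δmetr-1 labelled RNAi they had 553 and 176 CPM, and in wild type 1409 and 1699 CPM labelled RNAi against 605 and 1332 CPM on vector. No marker of these lists was at 0 in any library, and their part in the lysozyme differences was not tested.

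The genes most like each abundant member were sought among 5573 genes averaging at least 20 CPM in both tables, as the smaller of the Pearson correlations of log2(CPM + 1) over the 8 libraries of experiment 1 and the 12 of experiment 2, a description over libraries that share groups and depth. For lys-4 they were asp-13, an aspartyl protease gene (0.88 and 0.90), and pmp-5, an ABC transporter gene (0.87 and 0.91). For ilys-5 they were the cyclophilin gene cyn-3 (0.95 and 0.94) and mrps-28 (0.92 and 0.97), a mitochondrial ribosomal protein gene. For lys-8 they were F32B5.1 (0.97 and 0.93) and W10C8.5 (0.96 and 0.93), and for lys-2 cox-6A (0.93 and 0.89) and acbp-1 (0.84 and 0.94). The thaumatin-family gene thn-2 (0.91 and 0.81) and F55G11.4 (0.85 and 0.76) were nearest to lys-7, and gba-4 (0.72 and 0.73) and F54D5.4 (0.76 and 0.69) to lys-1. The likeness was weakest for lys-1, whose level varied least. The genes lys-5, ilys-2 and ilys-3 were too low for this comparison.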

How the data were processed

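Libraries of whole-animal RNA were prepared with a modified form of CEL-seq2, which reads the 3′ ends of transcripts. Reads were trimmed with Trimmomatic 0.32, aligned with STAR and assigned with ESAT to WormBase WS271 genes without pseudogenes. Each library was placed in its group by its title. The values the authors deposited under the name TPM are CPM: each library sums to 1000000, and 100% of its values were whole multiples of a single step (tolerance 0.01), from which whole reads were recovered. ESAT was run with its single-cell preparation step and a minimum of 1 unique molecular identifier, and the methods call the result read counts. Whether strand was used is not given in the sources used here. Multimapped reads were left to the counter, so similar copies are uncertain.

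The main test was two-sided limma 3.58.1 (R 4.3.3, trend and robust settings) on log2(CPM + 1), which fitted 1 mean for each group and pooled the spread across an experiment. Genes reaching 5 CPM in 2 or more libraries were tested. Benjamini-Hochberg adjustment ran over every gene tested, and calls required an adjusted p below 0.01 and more than 1.5-fold change, in 14 comparisons, 3 of them interactions. This scale understates changes of low genes. Alternatives were a pseudocount of 0.5, no filter, median-of-ratios scaling, edgeR 4.0.16 (quasi-likelihood) and DESeq2 1.42.0 on the recovered reads, the compared libraries alone, a replicate block and leaving out each library in turn, where the lone sample left in a group is assumed to vary like the others. Leaving out 3 RNAi libraries was added after seeing the data. The code was also run on simulated data with known changes. Passing was required only where the spread was set below that of the real libraries, so passing does not show the power reached here.

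The members and gene lists were chosen with earlier results of these data known. The named genes were the 9 members, the other genes with a lys or ilys symbol, and per abundant member the 2 genes most like it. Marker lists came from textbook knowledge. Positions are from the WBcel235 annotation, Ensembl release 115. No sequence is shown.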

Additional observations from a re-analysis of the deposited data

Results flagged for a closer look

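The difference of ilys-5 between libraries labelled RNAi and vector was not the same in metr-1(ww52);Δnhr-10 and wild type by limma's interaction term, -3.79 on the log2 scale (adjusted p = 0.00912). The levels were 115 and 94.2 CPM in the metr-1(ww52);Δnhr-10 strain labelled RNAi against 1418 and 1359 CPM on vector, and 885 and 1049 CPM in wild type labelled RNAi against 847 and 1004 CPM on vector. Without the 3 RNAi libraries that had high nhr-114, it was -4.05 (adjusted p = 0.126).

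Methionine went with opposite directions of lys-4 in the strains, with both treated libraries above both untreated ones in Δnhr-114 and below them in wild type. The interaction was 5.53 (adjusted p = 0.529), which missed the threshold of limma, and DESeq2 gave an adjusted p of 3.26e-05. The same held for lys-5, whose interaction was 3.16 (adjusted p = 1), with 0.00034 by DESeq2 and 0 reads in both untreated Δnhr-114 libraries. Wild type with methionine held 8 and 3 reads of lys-5, so its level there is near the floor. Over the alternatives the adjusted p ran from 3.26e-05 to 1 for lys-4 and from 0.00034 to 1 for lys-5.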

How the results depend on the processing

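Counts of members called moved with the tool in experiment 1. All were 0 by limma, and DESeq2 called 2 for methionine in Δnhr-114, 3 for untreated Δnhr-114 against wild type and 2 for the interaction. In experiment 2, DESeq2 called 2 members instead of 0 for Δmetr-1 on vector, 3 instead of 1 for Δmetr-1 against wild type labelled RNAi, and 3 in each interaction, instead of 0 for Δmetr-1 and 1 for metr-1(ww52);Δnhr-10. DESeq2 called 0.459% of all genes higher for Δmetr-1 on vector and 5.67% lower in the Δmetr-1 interaction. For the other settings of experiment 2 in this paragraph no share over all genes is given. Whether those counts exceed that share cannot be told from them. For metr-1(ww52);Δnhr-10 on vector, limma called 2, a pseudocount of 0.5 gave 1, edgeR and median-of-ratios scaling gave 0, and DESeq2 and the compared libraries alone gave 4. These 4 include lys-5, ilys-2 and ilys-3, which passed the filter only through the mutants, so that count is tied to where they were high. The compared libraries alone gave 0 instead of 3 for Δmetr-1 labelled RNAi against vector. For that comparison in metr-1(ww52);Δnhr-10, edgeR and the compared libraries alone lost lys-5 (adjusted p 0.0108 and 0.0122). DESeq2 added ilys-3 for metr-1(ww52);Δnhr-10 against wild type labelled RNAi (adjusted p 0.00114). The replicates of that strain had 0.209 and 11.3 CPM of ilys-3, and the log2 difference was as low as 0.129 among the alternatives. Median-of-ratios scaling and edgeR gave 0 instead of 1 for the interaction with metr-1(ww52);Δnhr-10. That scaling moved the median log2 difference of all genes by 0.13 for Δmetr-1 labelled RNAi against vector and by 0.15 for the Δmetr-1 interaction, and by under 0.1 elsewhere. Leaving out 1 library at a time gave 0 to 2 members for metr-1(ww52);Δnhr-10 on vector, 0 to 3 for its RNAi against vector, 2 to 3 for Δmetr-1 RNAi against vector, 1 to 2 for metr-1(ww52);Δnhr-10 against wild type labelled RNAi, 0 to 2 for the Δmetr-1 interaction and 0 to 1 for the other interaction of experiment 2. Without the 3 RNAi libraries of high nhr-114, chosen after seeing the data, 0 members were called in all 5 comparisons where limma had called any besides the interaction, and 0 in that interaction. That fit has fewer libraries and 11307 genes. The cause of the other changes was not tested.

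Of 47 gene results, 12 were called, each with 20 alternative values, and only these could lose a call. Of 871 alternative values for all 47 gene results, 770 kept direction and side of the threshold, 69 lost a call, 26 gained one and 6 changed sign. These were ilys-3 for metr-1(ww52);Δnhr-10 labelled RNAi against vector (0.0719 without its RNAi replicate 1 or without the 3 libraries, and -3.27 at the other end of the single-library range), ilys-3 in the interaction (0.0790 by DESeq2, 0.105 without the 3 libraries, and -3.09 to 0.25 with single libraries left out) and lys-7 in the Δmetr-1 interaction (-0.0278 to 2.07, the lowest without wild type RNAi replicate 1). Depth limits lys-5, ilys-2 and ilys-3, which held 0 to 193 reads in a library.

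With the replicate number as a replicate block, 2 instead of 1 members were called for Δmetr-1 against wild type labelled RNAi (lys-7 at an adjusted p of 0.00622), and 0 instead of 1 in the interaction with metr-1(ww52);Δnhr-10. No other count of members changed. The labels do not say that a number marks a shared batch, and deviations of same-numbered libraries correlated from -0.66 to 0.31 over the 6 pairs of groups in experiment 1 and from -0.47 to 0.68 over the 15 in experiment 2, so the samples were treated as sharing only a number, although replicate 1 of the 3 RNAi groups had high nhr-114 and lys-7 was higher in replicate 2 throughout.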

Other observations

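The level of lys-7 was higher in replicate 2 than in replicate 1 of all 10 groups, a pattern noticed after its values were seen. Of 10812 genes tested in both experiments, 16 (0.148%) were higher in replicate 2 of all 10 groups and 13 were lower in all 10. The other members did not share it: replicate 2 was higher in 9 groups for lys-1 and ilys-2, 8 for lys-5, 7 for lys-4 and lys-8, 6 for ilys-3 and ilys-5 and 4 for lys-2.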
